A study of Mus musculus with 768 samples.

Results

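The 10 genes described here are used by vascular smooth muscle: 7 of its contractile program (Acta2, Tagln, Myh11, Myl9, Cnn1, Mylk and Myocd) and 3 receptors (Gpr20, Olfr78 and Olfr558). They are 10 of 32679 genes in a table of read counts from single wells of the mouse dentate gyrus, a hippocampal region where adult rodents still make neurons. Levels are given as CPM, counts scaled to a common total per well or per mouse. The genes were chosen by their levels in smooth muscle-like against pericyte-like wells of these data, so that contrast is described below without a test. Cells were sorted for green fluorescence of the Nestin:GFP reporter and made into full-length cDNA by the plate-based Smart-seq2 protocol, in which molecules carry no identifiers. Mice were male, carried Nestin:GFP and were 2 months old when treated. Mice 2, 4, 6 and 8 had received a miR-132 mimic, an oligonucleotide standing in for that microRNA, and mice 1, 3, 5 and 7 a negative control oligonucleotide. Both were given as 150 pmol in 3 µl, mixed with lipofectamine 2000, each week for 5 weeks. Cells of mice 1 to 4 went through the sorter on 17 April 2018, those of mice 5 to 8 on 19 April 2018. What "AD" stands for in the series text is not spelled out there. Vascular cells were among those sorted, and Nes, the gene behind the reporter, averaged 277.7 ± 279.1 CPM in smooth muscle-like and 376.8 ± 353.4 CPM in pericyte-like wells (SD over 14 and 71 wells).

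Smooth muscle cells wrap arteries and arterioles in layers and narrow them by contraction, while pericytes sit singly on capillaries. Calcium entering a smooth muscle cell activates myosin light chain kinase, which phosphorylates the regulatory light chain so that smooth muscle myosin pulls on actin filaments. The genes of this machinery are switched on together by serum response factor, which binds DNA at the CArG box, and its co-activator myocardin.

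Of 768 wells, 675 held at least 50000 counts and at least 1000 genes (75 to 92 per mouse), and the median kept well had 646540 counts. A mouse had 4.39e+07 to 6.69e+07 counts over its kept wells. A pair of maps leads from well names to mice. The one used here takes the well names in the sample descriptions, and the other takes the sample titles, which gives the same mouse for 96 wells and the same treatment for 50% of wells. Among the kept wells 16, 2 per mouse, held 10045 to 11362 genes, against at most 5015 in the rest. The labels give 94 sorted cells per mouse while 96 wells per mouse were counted. These 16 wells were set apart before clustering, so 659 wells were clustered. The 10 genes were left out of the genes used for clustering. A second clustering of 85 mural wells gave 14 smooth muscle-like and 71 pericyte-like wells. Of 13 smooth muscle markers that are not members, 12 had a count in smooth muscle-like wells and 1, Actg2, had none. In pericyte-like wells 2 of the 13, Pln and Synpo2, had none, so most of these markers were read in both classes. Their contrast varied: Sncg averaged 1053 ± 736 CPM in smooth muscle-like and 23.3 ± 196.2 CPM in pericyte-like wells, but Casq2 1204 ± 1715 and 851 ± 1275 CPM. Of 10 pericyte markers, 9 had a lower mean in smooth muscle-like wells but none was absent, and Rgs5 was higher there (7966 ± 5095 against 6195 ± 2337 CPM). Vtn averaged 8880 ± 7247 CPM in smooth muscle-like and 44480 ± 15398 CPM in pericyte-like wells, and Kcnj8 had a count in 4 of 14 and in 64 of 71. All 9 endothelial markers together ranged over wells from 0 to 4513 CPM in smooth muscle-like and from 0 to 6477 CPM in pericyte-like wells. Of these 9, 5 were at 0 in all 14 smooth muscle-like wells: Cldn5, Pecam1, Kdr, Cdh5 and Slco1a4. Esam, also of the 9, had a count in 13 of 14 smooth muscle-like wells (1354 ± 1274 CPM). It had a count in 57 of 71 pericyte-like wells (1230 ± 1218 CPM).

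Both classes held a well that goes against its name. A smooth muscle-like well of control mouse 7 had counts of Myl9 and Mylk alone among the 10 genes, 3 of 13 smooth muscle markers, 9 of 10 pericyte markers at a sum of 35927 CPM and 6 of 7 fibroblast markers at a sum of 4691 CPM. That pericyte sum does not set the well apart, since the highest of the class was 41468 CPM and the median 20226 CPM. Its smooth muscle marker sum of 1399 CPM was the lowest of the class, whose median was 10844 CPM. A pericyte-like well of control mouse 5 had none of the 10 genes and none of 10 pericyte markers, but all 7 microglia markers at a sum of 37575 CPM. Without these wells Acta2 averaged 14170 and 159.1 CPM and Myl9 9004 and 3216 CPM in smooth muscle-like and pericyte-like wells.

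The smooth muscle-like wells carried most of the 10 genes at once. In 13 of these 14 wells at least 5 of the 10 genes had a count, with a median of 8. No pericyte-like well had 5, and their median was 2. Oligodendrocyte-like wells, which should lack these genes, held Acta2 in 7.00% of wells and each of the others in at most 3.67%. The median depth was 691640 counts in smooth muscle-like, 625420 counts in pericyte-like and 706150 counts in oligodendrocyte-like wells. All 10 genes had a higher mean in smooth muscle-like wells, where 42.9% of 9076 genes with a count in at least 5 mural wells did. Of the 9 members among those genes, 7 were at least 4-fold higher on the mean CPM + 1 scale, as were 6.82% of the 9076. The members were chosen on this contrast, so nothing is read from the count. Cnn1, with a count in 2 mural wells, is not among the 9.

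**Figure D1:**
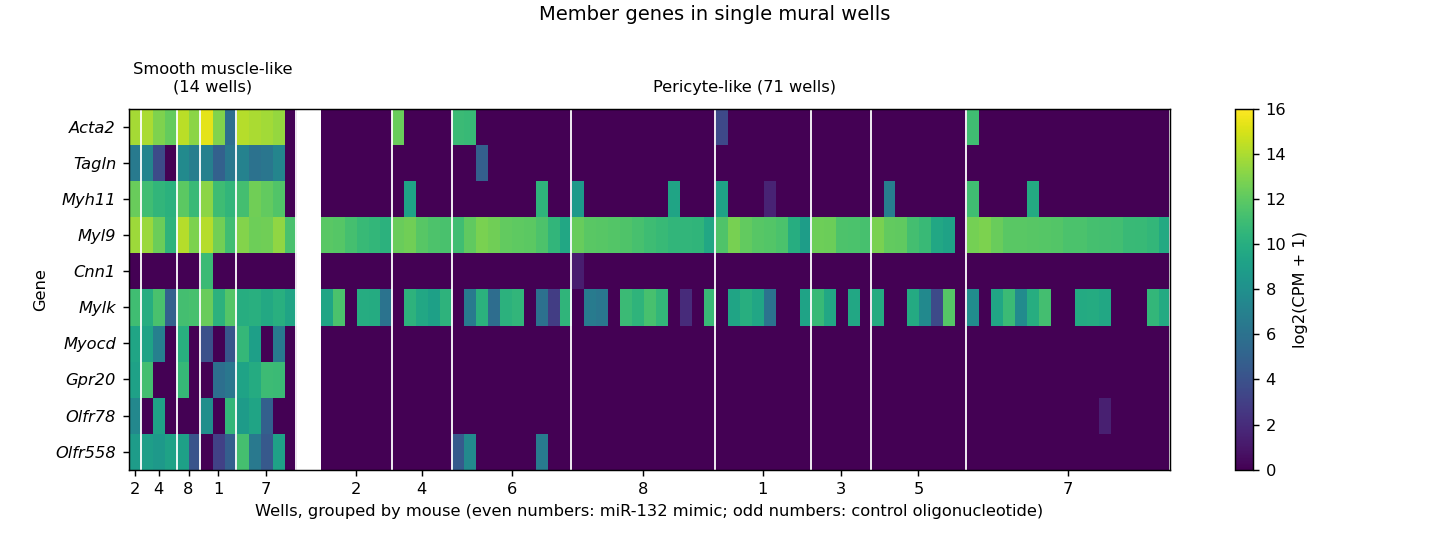
Heat map of log2(CPM + 1) of the 10 genes (rows) in each of the 14 smooth muscle-like wells (left block) and 71 pericyte-like wells (right block), in columns grouped by mouse, mimic mice before control mice. Acta2, Tagln, Myh11, Myocd and the 3 receptors are found mostly in the left block and are mostly at 0 in the right block, while Myl9 runs through 70 of 71 pericyte-like wells.

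Acta2 encodes smooth muscle α-actin, the thin filament on which myosin pulls. It ranged from 0 to 41829 CPM with a median of 12725 CPM over the 14 smooth muscle-like wells, and from 0 to 5193 CPM with a median of 0 over the 71 pericyte-like wells. The means were 13158 ± 10459 and 156.8 CPM, an 83.9-fold ratio. The pericyte-like mean was 90.03 CPM without mimic mouse 4, and 746 CPM when wells with at least 500 genes were kept and clustered anew, a setting chosen after seeing the data. In the main classes 11 smooth muscle-like wells lay above the highest pericyte-like well. All 5 mice with smooth muscle-like wells held Acta2 there. From counts summed over such wells of a mouse, it stood at 14526, 10293 and 15547 CPM in mimic mice 2, 4 and 8 (1, 3 and 2 wells). In control mice 1 and 7 it stood at 20332 and 13589 CPM (3 and 5 wells), and single wells of mouse 1 ran from 57.6 to 41829 CPM. Acta2 had a count in 5 of 71 pericyte-like wells, 7.04%, and in 7.00% of oligodendrocyte-like wells, so the share of wells alone does not separate it from background. By level, 4 of those 5 pericyte-like wells held 1765 to 5193 CPM, and the highest well of the 6 other named classes 408 CPM. These 4 wells came from mimic mouse 4 (1 well), mimic mouse 6 (2 wells) and control mouse 7 (1 well). The source of their Acta2 counts was not tested.

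Tagln, which encodes the actin-binding protein transgelin, was present in 12 of the 13 smooth muscle-like wells with Acta2, at a far lower level, and in none of the 5 pericyte-like wells with Acta2. It ranged from 0 to 201.1 CPM with a median of 88.5 CPM over smooth muscle-like wells, and a single pericyte-like well, of mimic mouse 6, held it at 28.1 CPM with Acta2 at 0. Per kilobase of exon its mean in smooth muscle-like wells was 44.5 ± 31.3 CPM, against 5992 ± 4763 CPM for Acta2. Of its 1988 exon bases, 67.9% also lie in exons of other annotated genes on the opposite strand, most of them in Gm48529 and 5.43% in Pcsk7. Gm48529 is not among the counted genes, while Pcsk7 is. Smart-seq2 does not mark strand, and Pcsk7 averaged 127.2 ± 220.8 CPM in smooth muscle-like and 8.27 ± 39.1 CPM in pericyte-like wells. The part of this overlap in the Tagln level was not tested. Cnn1, which encodes the actin-binding inhibitor calponin, had a count in 1 of 14 smooth muscle-like wells. That well, of control mouse 1, held Cnn1 at 1880 CPM and also the highest Acta2 (41829 CPM), Myh11 (9564 CPM) and Mylk (5238 CPM) of the class.

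Myh11 encodes the smooth muscle myosin heavy chain, the motor of contraction. It ranged from 0 to 9564 CPM with a median of 2255 CPM over smooth muscle-like wells, and from 0 to 2204 CPM with a median of 0 over pericyte-like wells. In the 13 smooth muscle-like wells with a count the lowest value was 1175 CPM. Of 9 pericyte-like wells with a count, 1 also held Acta2 above 1000 CPM, in control mouse 7. On log2(CPM + 1), Acta2 and Myh11 had r = 0.90 across smooth muscle-like wells and r = 0.19 across pericyte-like wells. The higher value leans on 1 of the 14 wells that had neither gene, the well of control mouse 7 that goes against its name. Without that well r would be lower, so the contrast of the 2 values is not read further. These are descriptions over 14 and 71 wells that share mice and libraries.

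Myl9 and Mylk were the members that pericytes shared. Myl9 encodes the regulatory light chain that the kinase phosphorylates. It ranged from 1349 to 19290 CPM with a median of 6895 CPM over smooth muscle-like wells, and from 0 to 7339 CPM with a median of 2933 CPM over pericyte-like wells. The ratio of means was 2.70, and 7 of 14 smooth muscle-like wells lay above every pericyte-like well. Myl9 had a count in 70 of 71 pericyte-like wells, in 4 of 16 fibroblast-like wells (mean 220 CPM) and in 3.67% of oligodendrocyte-like wells, where its mean was 0.0595 CPM. Mylk encodes the kinase itself. It ranged from 30.4 to 5238 CPM with a median of 1158 CPM over smooth muscle-like wells, and from 0 to 3566 CPM with a median of 554 CPM over pericyte-like wells. It had a count in 14 of 14 and in 49 of 71 wells, and 1 smooth muscle-like well lay above every pericyte-like well. Endothelial-like wells held Mylk in 11.2% of wells (mean 58.98 CPM).

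Promoters of Acta2 and Myl9 are shown because these genes had the highest levels in smooth muscle-like wells, while in pericyte-like wells Myl9 was read in 70 of 71 and Acta2 in 5 of 71. The bases run from 250 before to 50 after the start of the transcript, from RefSeq on GRCm38.p6, Acta2 at chr19:34255324-34255623 on the minus strand and Myl9 at chr2:156775214-156775513 on the plus strand. Capitals mark CArG boxes, in the strict form or with 1 G or C among the inner bases.
Acta2: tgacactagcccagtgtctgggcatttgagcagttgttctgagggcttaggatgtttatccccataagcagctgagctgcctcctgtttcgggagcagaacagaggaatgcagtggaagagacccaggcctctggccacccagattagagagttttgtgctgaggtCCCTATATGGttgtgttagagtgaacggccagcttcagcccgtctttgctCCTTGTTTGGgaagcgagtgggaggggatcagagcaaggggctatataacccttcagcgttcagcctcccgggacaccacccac
Myl9: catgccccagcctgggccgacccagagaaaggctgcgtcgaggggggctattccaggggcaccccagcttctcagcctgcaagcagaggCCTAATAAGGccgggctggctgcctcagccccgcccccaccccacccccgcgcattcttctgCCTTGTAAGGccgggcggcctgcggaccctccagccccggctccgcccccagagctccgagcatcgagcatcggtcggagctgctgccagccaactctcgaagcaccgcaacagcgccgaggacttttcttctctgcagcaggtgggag
Myl9 held a strict box from base -161 to -152 and a box with 1 G or C from -99 to -90. Acta2 held no strict box and a pair with 1 G or C, from -84 to -75 and from -34 to -25. Searched on both strands, the strict box stood in 1.63% and the looser form in 8.50% of all 32851 promoters of this length. Promoter sequences were at hand for 5 of the 10 genes, and those of Mylk, Cnn1 and Olfr558 held neither form. The Mylk window, chr16:34784700-34784999, lies inside the annotated gene, which begins at 34745210. Most of the Acta2 window also lies inside the annotated gene, which on the minus strand begins at 34255590. Bases before the first annotated Mylk start were not searched, and those before the Acta2 start only as far as 34255623. The MCAT letters CATTCC, read by TEAD factors, stood in the Mylk and Acta2 windows and in 14.7% of all. The letters TGGGAA, the core read by the Notch partner RBPJ, stood in the Acta2 window, where they overlap the second CArG box, in the Olfr558 window, and in 25.6% of all. TATAAA stood in none of the 5 and in 13.6% of all. These matches describe letters in a window and are not evidence of binding. No promoter is shown for Tagln, Myh11, Myocd, Gpr20 and Olfr78.

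Myocd encodes myocardin, the co-activator that directs serum response factor to contractile genes. It had a count in 9 of 14 smooth muscle-like wells, at 14.8 to 1634 CPM, and in 0 of 71 pericyte-like wells, which allows a share of up to 4.23%. The class mean was 343.6 ± 510.6 CPM. All 9 wells with Myocd also had Acta2, Tagln and Myh11. The 2 wells with most Myocd, 1634 and 1115 CPM, came from control mouse 7 and mimic mouse 8. Its highest level in the other named wells was 5.87 CPM.

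Among kept wells, in the main classes, most counts of the 3 receptors came from smooth muscle-like wells. Gpr20 encodes an orphan receptor that couples to an inhibitory G protein. It had a count in 9 of 14 smooth muscle-like wells, at 57.05 to 2363 CPM, in 0 of 71 pericyte-like wells (a share of up to 4.23%) and in 5 of 574 other named wells, at no more than 64.1 CPM. Olfr558, the mouse relative of human OR51E1, is an olfactory receptor used outside the nose that answers to short-chain fatty acids. It had a count in 12 of 14 smooth muscle-like wells, at 7.61 to 2474 CPM. It had a count in 3 of 71 pericyte-like wells, at 22.3, 98.1 and 181.01 CPM, all of mimic mouse 6. Of the 14 smooth muscle-like wells, 7 lay above the highest of these. Olfr78, the mouse relative of human OR51E2, is also used in blood vessels and in the carotid body. It had a count in 7 of 14 smooth muscle-like wells, at 28.7 to 1517 CPM, in 1 of 71 pericyte-like wells with a single count and in 0 of 574 other named wells, which allows up to 1.00% of the 300 oligodendrocyte-like wells. The well with most Olfr78, of control mouse 1, held Acta2 at 57.6 CPM.

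At least 2 of the 3 receptors were read together in 10 of 14 smooth muscle-like wells, and Gpr20 with Olfr558 also in 2 of the 16 wells with many genes. All 3 were read in 5 of 14 wells, Gpr20 with Olfr558 in 4, Olfr558 alone in 2, Olfr78 with Olfr558 in 1, Olfr78 alone in 1 and none in 1. All 9 wells with Gpr20 had Olfr558. In pericyte-like wells no pair was read together, with 67 of 71 wells holding none. Across the 14 wells Olfr78 varied with little relation to Gpr20 (r = 0.04) or Olfr558 (r = 0.05), and Gpr20 and Olfr558 had r = 0.50, each over the same wells and on log2(CPM + 1). Olfr558 and Olfr78 are neighbours on chromosome 7, 26446 bases apart with 3 annotated genes wholly between them, and on opposite strands. Olfr78 shares 15.3% of its exon bases with Olfr560 on the same strand, and reads that fit both olfactory receptor genes are uncertain.

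Levels of different genes are compared per kilobase of exon. In smooth muscle-like wells the means were 7359 ± 4894 CPM per kb for Myl9, 5992 ± 4763 for Acta2, 423.3 ± 325.5 for Myh11, 337.7 ± 410.2 for Gpr20 and 161.5 ± 121.8 for Mylk (SD, 14 wells). They were 134.4 ± 212.2 CPM per kb for Olfr558, 53.5 ± 79.5 for Myocd, 49.1 ± 183.6 for Cnn1, 44.5 ± 31.3 for Tagln and 43.1 ± 71.3 for Olfr78. Acta2 and Myh11 are the only neighbours in this order whose means differ by more than the larger of their SDs. Myl9 and Acta2 thus form a high pair, and the other 8 genes follow below it.

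**Figure D2:**
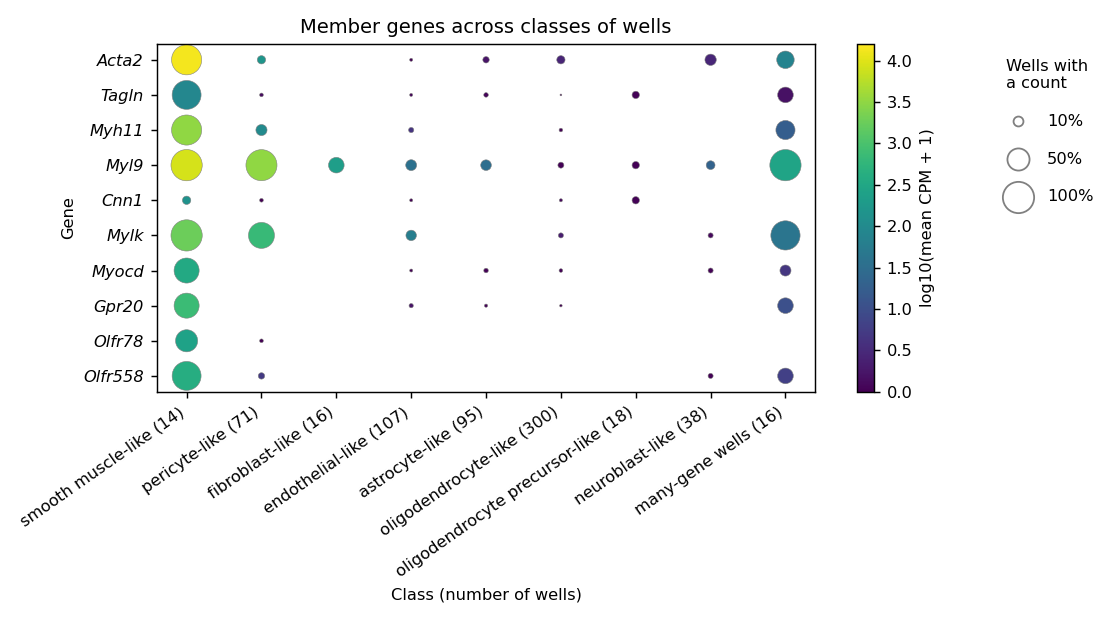
Dot plot of the 10 genes (rows) over the classes of wells (columns, with the number of wells), where dot size is the percent of wells with a count and colour is log10(mean CPM + 1). Myl9 and Mylk are the members with large dots in both the smooth muscle-like and the pericyte-like column.

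All 10 genes are protein-coding (build mm10, GENCODE M21). Acta2 (ENSMUSG00000035783.9) lies on chromosome 19 from 34241090 to 34255590, Tagln (ENSMUSG00000032085.5) on chromosome 9 from 45929619 to 45936058 and Cnn1 (ENSMUSG00000001349.5) on chromosome 9 from 22099216 to 22109630. Myh11 (ENSMUSG00000018830.10) lies on chromosome 16 from 14194535 to 14291372, Mylk (ENSMUSG00000022836.11) on chromosome 16 from 34745210 to 35002420 and Myl9 (ENSMUSG00000067818.6) on chromosome 2 from 156775420 to 156781658. Myocd (ENSMUSG00000020542.18) lies on chromosome 11 from 65176561 to 65269989 and Gpr20 (ENSMUSG00000045281.5) on chromosome 15 from 73694604 to 73707505. Olfr78 (ENSMUSG00000043366.16) lies on chromosome 7 from 102738511 to 102759471 and Olfr558 (ENSMUSG00000070423.6) on chromosome 7 from 102702215 to 102712064. In the longest annotated 3′ UTR of each of the 10 genes, the 8-base site for miR-132-3p, GACTGTTA, was found in 0, and so was its 7-base form GACTGTT. The other 7-base form, 6 seed-matched bases followed by an A, was found once, in Myocd.

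The rest of the contractile pathway was read from lists of other genes, set against the same contrast and given with no test. Of 23 genes of the thin filament and cytoskeleton, 21 were measured in at least 5 mural wells and 20 had a higher mean in smooth muscle-like wells. Of these, 11 were at least 4-fold higher and 0 at least 4-fold lower, with a median log2 ratio of 2.05. Over all 9076 genes 6.82% were at least 4-fold higher and 20.3% at least 4-fold lower, with a median of -0.19. Tpm2 and Lmod1, among the 11, are also among the markers that named the smooth muscle-like class. Tpm1 and Tpm2, the tropomyosins that lie along the actin filament, averaged 2298 ± 1285 and 2232 ± 1871 CPM in smooth muscle-like and 327.4 ± 364.9 and 152.5 ± 266.99 CPM in pericyte-like wells. Actb, cytoplasmic actin, averaged 19180 ± 6611 and 12908 ± 5533 CPM, and Cald1, which encodes the actin-binding caldesmon, 2895 ± 1180 and 2733 ± 1738 CPM. Both of these last differences were smaller than the smooth muscle-like SD.

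Of 16 genes that control the myosin kinase and phosphatase all were measured, 10 had a higher mean in smooth muscle-like wells and 3 were at least 4-fold higher (median log2 ratio 0.86). Ppp1r12a and Ppp1r12b, the targeting subunits of myosin phosphatase, averaged 630 ± 1344 and 821 ± 1059 CPM in smooth muscle-like and 43.3 ± 140.7 and 42.3 ± 138.1 CPM in pericyte-like wells. Calm2, which encodes the calcium sensor calmodulin, averaged 773 ± 356.2 CPM in smooth muscle-like and 424 ± 419 CPM in pericyte-like wells. Of 7 other myosin chains 4 were measured and 0 passed 4-fold, with Myl6, the essential light chain, nearest at 1613 ± 1261 against 405 ± 330.6 CPM (log2 ratio 1.99). Myh9, non-muscle myosin, averaged 484 ± 342.8 in smooth muscle-like and 369.9 ± 477.3 CPM in pericyte-like wells, Myl12a 348.6 ± 339.9 and 551 ± 521 CPM, and Myl12b 134.99 ± 164.4 and 385.1 ± 426.6 CPM.

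Of 18 transcription genes of smooth muscle 13 were measured, and 1, Mkl2, was at least 4-fold higher, a share of 7.69% that is near that of all genes (233.9 ± 607.0 in smooth muscle-like and 30.9 ± 102.8 CPM in pericyte-like wells). The count was 3 without mimic mouse 6, without control mouse 7 or without the 2 wells that go against their class, and 2 without mimic mouse 2 or control mouse 1. Mkl2 encodes another co-activator of serum response factor. Srf itself had a count in 0 of 14 smooth muscle-like and 1 of 71 pericyte-like wells. Mef2c averaged 637 ± 639 in smooth muscle-like and 219.99 ± 381.96 CPM in pericyte-like wells. The Notch target Heyl averaged 542 ± 567 and 1191 ± 1064 CPM, and Foxs1 203.3 ± 331.7 and 336.9 ± 470.0 CPM, both higher in pericyte-like wells.

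Of 17 genes for calcium handling and channels 14 were measured, with 3 at least 4-fold higher and 2 at least 4-fold lower in smooth muscle-like wells. The lower pair, Kcnj8 and Abcc9, are subunits of an ATP-sensitive potassium channel and are among the markers that named the pericyte-like class. Abcc9 averaged 294.4 ± 768.8 CPM in smooth muscle-like and 2286 ± 1749 CPM in pericyte-like wells. Atp2a2, the calcium pump of the internal store, averaged 381.8 ± 661.4 and 39.96 ± 133.9 CPM. Itpr1, a calcium release channel, averaged 424 ± 441 and 190.2 ± 342.1 CPM, and the calcium store protein gene Casq2 1204 ± 1715 and 851 ± 1275 CPM. Casq2 and Pln, which is 1 of the 3 past 4-fold, are among the markers that named the smooth muscle-like class.

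Of 18 counted receptors of vascular tone, 9 were measured, and 0 were at least 4-fold higher in smooth muscle-like wells while 2, Adora2a and Tbxa2r, were at least 4-fold lower, a share near that of all genes. The adenosine receptor gene Adora2a averaged 21.1 ± 50.2 CPM in smooth muscle-like and 319.2 ± 506.1 CPM in pericyte-like wells. Notch3 averaged 1633 ± 1574 and 953 ± 892 CPM, and the endothelin receptor gene Ednra 1135 ± 1112 and 878 ± 914 CPM. The subunits of the nitric oxide receptor, Gucy1a3 and Gucy1b3, averaged 1003 ± 930 and 813 ± 710 CPM in smooth muscle-like and 795 ± 728 and 758 ± 613 CPM in pericyte-like wells. Of 10 genes of olfactory receptor signalling 6 were measured, and 0 were at least 4-fold higher. Adcy3, the adenylyl cyclase of the olfactory epithelium, had a count in 0 of 14 smooth muscle-like and 10 of 71 pericyte-like wells (mean 66.98 ± 196.6 CPM). Other cyclases were present: Adcy6 averaged 156.8 ± 257.1 and Adcy5 69.6 ± 183.7 CPM in smooth muscle-like and 82.02 ± 189.99 and 32.1 ± 208.6 CPM in pericyte-like wells. Ric8b, a G protein chaperone, averaged 54.4 CPM with a count in 3 of 14 wells, and 57.03 CPM with a count in 6 of 71 wells, and Gnas, a stimulatory G protein, averaged 4.33 ± 10.7 and 3.97 ± 9.33 CPM.

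**Figure D3:**
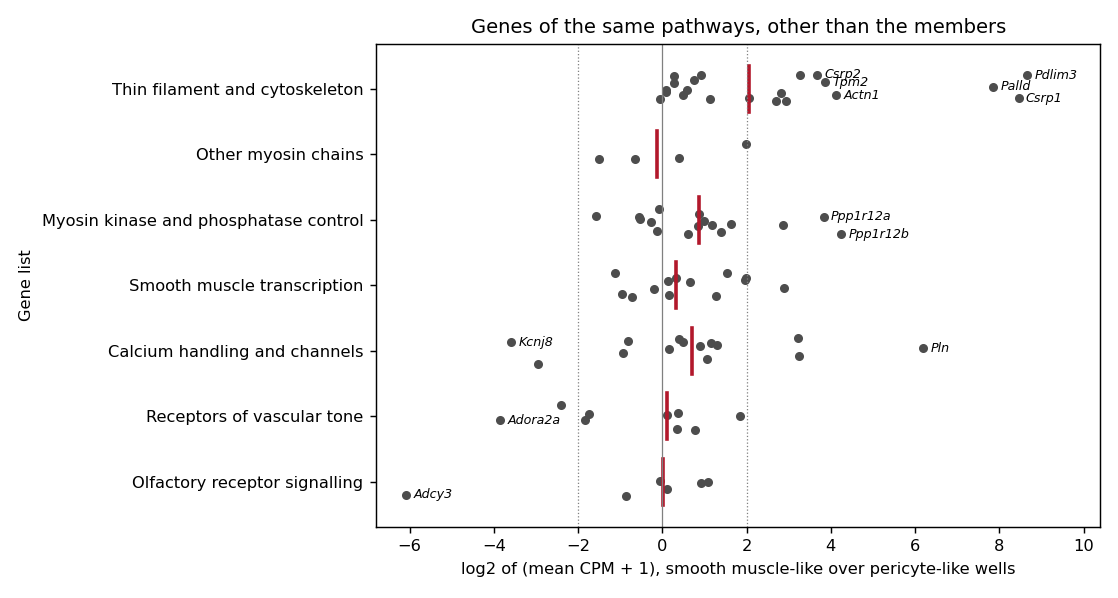
Each dot is a gene of a list (rows) with a count in at least 5 mural wells, placed by the log2 ratio of mean CPM + 1 in smooth muscle-like over pericyte-like wells. Red bars are list medians, dotted lines mark a 4-fold ratio, and Pdlim3, Csrp1 and Palld of the thin filament list stand farthest to the right.

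Across the 659 clustered wells, the genes outside these lists most like the mean of the 7 contractile members marked mural wells as a whole. The 10 highest correlations on log2(CPM + 1), r = 0.79 to 0.71, belonged to Rgs4, Higd1b, Slc38a11, Rgs5, Cd248, Adap2, Ndufa4l2, Perp, Gprc5c and Ano1. Notch3, of the receptor list, had r = 0.77. Rgs4 had a count in 13 of 14 smooth muscle-like and 69 of 71 pericyte-like wells. For the receptors the nearest genes were mostly other members. Tagln, Myocd and Olfr558 were nearest to Gpr20 (r = 0.79, 0.78 and 0.74), and Myocd, Tagln and Slit3 to Olfr78 (r = 0.69, 0.65 and 0.64). Gm6249, Acta2 and Myocd were nearest to Olfr558 (r = 0.79 for each). Most wells are at 0 for these genes, so these values largely say which wells hold a count.

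The mimic was compared with the control oligonucleotide over mice, a contrast that the choice of genes did not use. Smooth muscle-like wells numbered 1 of 92, 3 of 75, 0 of 86 and 2 of 91 kept wells in mimic mice 2, 4, 6 and 8. They numbered 3 of 89, 0 of 75, 0 of 85 and 5 of 82 in control mice 1, 3, 5 and 7. The mean share was 1.82% ± 1.71 in mimic and 2.37% ± 2.95 in control mice (SD, n = 4 each), a difference of -0.55 percentage points (two-sided exact permutation p = 0.8286, adjusted 0.947 over 8 classes). Within dates it was 0.86 points on 17 April and -1.95 points on 19 April, and without control mouse 7 or mimic mouse 6 it was 0.70 and 0.06 points. The shares overlap, and the smallest p that 70 arrangements allow is 0.0286.

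In sums over all kept wells of a mouse, fewer cells of a type and less RNA per cell cannot be told apart. Most counts of 8 of the 10 genes came from the 14 smooth muscle-like wells: 95.6% for Acta2, 87.3% for Myh11 and over 94% for Tagln, Cnn1, Myocd, Gpr20, Olfr78 and Olfr558. For Myl9 and Mylk it was 36.5% and 32.2%.

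Acta2 stood at 186.6, 503.7, 38.8 and 377.6 CPM in mimic mice 2, 4, 6 and 8, and at 604, 0.145, 9.02 and 788 CPM in control mice 1, 3, 5 and 7. The low values lie in mice without smooth muscle-like wells, mimic mouse 6 and control mice 3 and 5, and the groups overlap. Myh11 stood at 65.8, 91.9, 17.0 and 83.8 CPM in mimic mice and at 153.8, 0.0624, 1.88 and 228.6 CPM in control mice, with the same 3 mice lowest. Tagln stood at 1.21, 3.21, 0.374 and 3.89 CPM in mimic mice and at 2.61, 0, 0.0998 and 5.67 CPM in control mice, and overlapped as well.

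Cnn1 had 0, 0, 0 and 0.0149 CPM in mimic mice and 23.2, 0.0831, 0.579 and 0.0167 CPM in control mice. These ranges did not meet, but mimic mouse 8 and control mouse 7 each had a single well with Cnn1, and 97.03% of all its counts came from 1 well of control mouse 1. The share of all genes whose ranges do not meet is not given here, so nothing is read from this. Myocd stood at 8.64, 13.6, 0.0197 and 14.2 CPM in mimic mice and at 0.364, 0, 0.0200 and 32.4 CPM in control mice.

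Gpr20 stood at 7.16, 44.1, 0.767 and 21.4 CPM in mimic mice and at 1.13, 0.291, 0.858 and 63.6 CPM in control mice. Olfr558 stood at 5.80, 22.5, 3.93 and 7.23 CPM in mimic mice and at 0.405, 0, 0.439 and 44.9 CPM in control mice. Olfr78 stood at 2.28, 7.38, 0 and 0 CPM in mimic mice and at 13.1, 0, 0 and 15.8 CPM in control mice. Control mouse 7, with 17 pericyte-like and 5 smooth muscle-like wells, was the highest mouse for all 3, and every receptor overlapped between treatments. None of these 8 genes passed the filter that asks for a count in 10% of wells. In the edgeR fit without a filter none passed the threshold either: the lowest adjusted p was 0.0771, for Cnn1 (log2 fold -8.21 ± 2.23, SE). Olfr78 had a log2 fold of -4.86 ± 2.29, Myh11 -0.61 ± 0.30 and Acta2 -0.40 ± 0.23, with edgeR adjusted p of 0.807, 0.856 and 0.9025. Those of Myocd, Gpr20, Olfr558 and Tagln lay between 0.13 and 2.26, with adjusted p of 0.916 to 1.00.

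**Figure D4:**
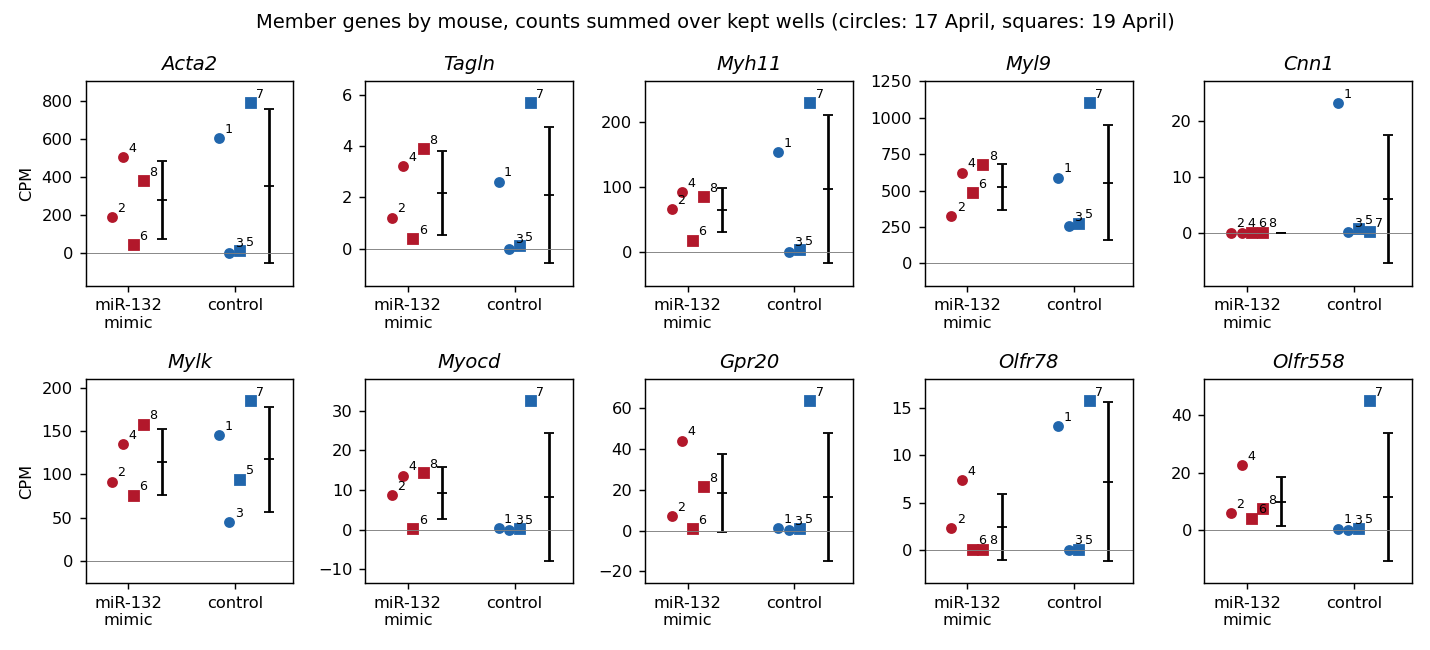
CPM of each of the 10 genes by mouse, from counts summed over kept wells, with the miR-132 mimic left of the control; numbers are mouse numbers, circles and squares the sort dates, and bars the mean ± SD over 4 mice. Control mouse 7 is the highest for 9 of the 10 genes, Cnn1 being the exception.

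Myl9 and Mylk could be tested. Myl9 stood at 325.5, 623.8, 482.4 and 673.6 CPM in mimic mice and at 587.1, 257.1, 272.2 and 1099 CPM in control mice, a mean of 526 ± 156.5 in mimic and 554 ± 394 CPM in control mice (SD, n = 4 each). Mylk stood at 91.2, 134.7, 75.1 and 157.1 CPM in mimic mice and at 145.3, 44.999, 93.6 and 184.4 CPM in control mice. Control mouse 7 was highest and control mouse 3 lowest for both, so the mimic mice lay inside the control range. The log2 fold, mimic over control, was -0.07 ± 0.40 (SE) for Myl9 and -0.04 ± 0.39 for Mylk, with an adjusted p of 1.00 for each by edgeR's quasi-likelihood test with Benjamini-Hochberg adjustment. Without control mouse 7 the log2 folds were 0.48 and 0.23, without control mouse 1 they were 0.17 and 0.31, without mimic mouse 2 0.06 and 0.02, and without mimic mouse 6 0.06 and 0.19. With wells assigned by sample title the log2 folds were -0.80 and -1.19, and neither gene passed. By date, differences of the mean log2(CPM + 1) over mice, mimic minus control, were 0.21 on 17 April and 0.06 on 19 April for Myl9, and 0.45 and -0.27 for Mylk. Of 8823 genes tested, edgeR called 0 (0%), with 395 at unadjusted p under 0.05, and DESeq2 called 12.

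In pericyte-like wells alone, with 5 to 17 wells per mouse, 3 members were tested. Myl9 stood at 2381, 4337, 3820 and 2566 CPM in mimic mice and at 3285, 4084, 3124 and 3274 CPM in control mice, a log2 fold of -0.13 ± 0.24. Mylk stood at 895, 801, 584 and 767 CPM in mimic mice and at 512, 745, 848 and 649 CPM in control mice, a log2 fold of 0.09 ± 0.35. Myh11 stood at 0, 191.5, 139.9 and 96.4 CPM in mimic mice and at 40.9, 0, 16.7 and 156.4 CPM in control mice, a log2 fold of 1.20 ± 2.28, or -1.17 without mimic mouse 4. All 3 overlapped, and each had an adjusted p of 1.00 (edgeR). Of 5142 genes tested there edgeR called 0 (0%), with 35 at unadjusted p under 0.05, and DESeq2 called 12. Acta2 did not pass the filter in these wells. It stood at 0, 657, 308.2 and 0 CPM in mimic mice and at 0.735, 0, 0 and 112.01 CPM in control mice, each value above 0 from 1 or 2 wells. Without the filter its log2 fold was 5.20 ± 2.50 (SE, edgeR adjusted p = 0.934).

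No gene of the lists passed this comparison. In all kept wells edgeR tested 16 thin filament, 14 kinase and phosphatase, 10 transcription, 9 receptor, 6 calcium, 4 myosin chain and 3 olfactory signalling genes, and called 0 in each list. The medians of their log2 folds, mimic over control, were -0.01, -0.09, 0.40, 0.01, -0.40, 0.29 and 0.17, against 0.00043 over all genes tested. All 6 calcium genes had a negative log2 fold, among them Itpr1 (-0.38) and Abcc9 (-0.43), and none passed the test. Of all 8823 genes tested, 4416 had a positive log2 fold. Abcc9 and Kcnj8 (-0.69), also of the 6, are pericyte markers, so cell number and RNA per cell cannot be told apart here either.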

How the data were processed

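The deposited table holds raw read counts per gene and well, made by the authors from Smart-seq2 reads. The tools used were STAR, featureCounts 1.5.1 of Subread, FastQC and Seurat 2.3.1 on build mm10, per the submitters' processing notes, with settings not given in the sources used here. The genes and lists were chosen with earlier results of these data known. Wells with at least 50000 counts and 1000 genes were kept, and those over 6000 genes were set apart. The rest were clustered with scanpy 1.11.5 (2000 variable genes without the 10 members, 20 components, 15 neighbours, Leiden resolution 1). A cluster took the name of the class whose markers had the highest mean difference of log2(CPM + 1) from the other clustered wells. Mural wells were clustered again at resolution 0.5. This second round, the setting apart and the naming score were set after seeing that 1 round did not split mural wells. No doublet caller was run. Counts were summed per mouse and tested with edgeR 4.0.16 (R 4.3.3; quasi-likelihood, TMM, sort date as covariate, a count in at least 10% of wells and filterByExpr, adjusted p threshold 0.05), with DESeq2 1.42.0 as an alternative. The tests were checked on simulated data. Descriptions use CPM and log2(CPM + 1). Wells were assigned to mice by the sample descriptions. Named genes are the 10 members, up to 4 genes of each list with the highest smooth muscle-like mean, and the nearest genes by correlation, of which 1 list gene is not reported here; Tbxa2r, Adora2a, Adcy3, Kcnj8, Mkl2, Srf, Pdlim3, Csrp1, Palld and Pcsk7 were added after their values were seen. Upper limits for a share of wells, where no well had a count, are 3 over the number of wells. They treat wells as independent, although wells share mice. Intervals, and the limit of 3 counts for a summed count of 0, cover counting error only, since reads without molecular identifiers are not independent molecules.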

Additional observations from a re-analysis of the deposited data

Results flagged for a closer look

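In groups of 4 mice, a mouse far from the other 3 was found in 6 of 28 groups examined. Chance gives about 1 in 20 for independent values, but these groups share wells and hold many zeros, so the number is not read against it. Cnn1 over all kept wells stood apart in mimic mouse 8 (0.0149 CPM, a single count, with the other 3 mimic mice at 0) and in control mouse 1 (23.2 CPM). Control mouse 7 stood above the other control mice for Myocd (32.4 CPM), Gpr20 (63.6 CPM) and Olfr558 (44.9 CPM). In pericyte-like wells, control mouse 3 stood above the other control mice for Myl9 (4084 CPM).

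The 93 wells that were not kept, 35 under 50000 counts and 58 with enough counts but under 1000 genes, also held the genes. Summed over these wells, Acta2 stood at 1157 CPM, Tagln at 14.7, Myh11 at 584, Myl9 at 1962, Mylk at 177.9, Myocd at 72.4, Gpr20 at 2.12 and Olfr558 at 124.6 CPM, each above the limit that a count of 0 allows. Of these wells 9 had at least 100 counts over the 10 genes. Acta2 exceeded 1000 counts in 5 of them, at 8469 to 15309 CPM with 622 to 777 genes, and these came from mimic mice 2, 4, 6 and 8 and control mouse 3. When wells with at least 500 genes were clustered anew, 4 of these 5 wells fell in the pericyte-like class, those of mimic mouse 6 and control mouse 3 among them. The well of mimic mouse 2 held Olfr558 at 3001 CPM. Another well of control mouse 3, with 417 genes, held Olfr558 at 5415 CPM, alone among the 10 genes and with 0 smooth muscle markers.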

How the results depend on the processing

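Of 561 alternative values, 511 were counted as the same, 32 as moved and 18 as changed in sign. For log2 folds and the share, a value of the same sign could count as the same at a different size. Mylk over all kept wells had a log2 fold of -1.19 by the sample titles, against -0.04 in the main setting. It still counted as the same. For all kept wells DESeq2 called 12 genes and the fit without a low-count filter 84 of 31906; for pericyte-like wells they called 12 and 1 of 17224. Leaving out each mouse left both counts at 0. The difference in smooth muscle-like share changed sign with 10 components and 10 neighbours (0.331 points) and with at least 500 genes per well (0.118 points), both chosen after seeing the data, and ranged from -1.335 to 0.698 points when each mouse was left out. By the sample titles it was -1.81 points (exact permutation p = 0.0571). Leaving out each mouse, all kept wells gave log2 folds of -0.311 to 0.479 for Myl9 and -0.334 to 0.306 for Mylk, and pericyte-like wells -1.167 to 2.305 for Myh11, -0.326 to 0.0402 for Myl9 and -0.0409 to 0.222 for Mylk. With wells assigned by title, pericyte-like folds were -0.874 for Myh11, 0.142 for Myl9 and -0.307 for Mylk. The cause was not tested. Between 9 and 10 members had the higher smooth muscle-like mean when each mouse was left out, Cnn1 being the exception without control mouse 1. No paired analysis was possible because mouse numbers differ between treatments. With at least 500 genes per well, pericyte-like means were 403.5 CPM for Myh11, 7.97 for Tagln and 45.9 for Olfr558. With 10 components and 10 neighbours they were 21.09 CPM for Olfr78, 1.095 for Gpr20 and 0.2528 for Myocd. Leaving out each mouse, genes at least 4-fold higher numbered 9 to 11 (thin filament), 2 to 4 (kinase and phosphatase), 1 to 3 (transcription), 2 to 4 (calcium), 0 to 1 (myosin chains) and 0 to 1 (receptors). The receptors and Myocd rest on 14 smooth muscle-like wells from 5 mice.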
